A study of Mus musculus with 14 samples.

Results

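The LIM-homeodomain genes Lhx2, Lhx9 and Lmx1b, the LIM domain binding cofactor genes Ldb1 and Ldb2 and the LIM-only gene Lmo4 were followed in 14 RNA-seq libraries of mesenchymal cells sorted from mouse forelimb buds. These 6 genes were chosen by name as LIM factors and cofactors of distal and dorsal limb mesenchyme, out of 24454 genes in the count table. All 6 are in the table with 1 row each, and all 6 passed the filter on low counts that left 15125 genes for testing.

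The embryos carried a Sox9 IRES-EGFP allele, in which EGFP reports the expression of the cartilage regulator Sox9, in a mixed Swiss Albino background, and embryos of both genders were used. Dead cells and cells with the endothelial, blood or ectodermal surface proteins CD31, Ter119, CD45, Gr1, CD11b or EpCAM were excluded from every sort. At E10.5, Sox9-EGFP-negative cells gave S9-JAG1+ limb bud mesenchymal progenitors (LMPs, JAG1+SCA-1-, 3 libraries), S9-Pαhi LMPs (JAG1-SCA-1- with high PDGFRα, 3 libraries) and S9-SCA-1+ cells (JAG1-SCA-1+, 2 libraries with the replicate numbers 2 and 3), and Sox9-EGFP-positive cells with high PDGFRα gave S9+Pαhi osteo-chondrogenic progenitors (OCPs, 3 libraries). S9+PαhiCol2a1+ chondroblasts (3 libraries) came from E11.5 forelimb buds, so population and stage cannot be told apart in any comparison with them, and the gate given in their labels is the one given for OCPs. Each library was made from cells of many pooled forelimb buds. In such bulk libraries fewer cells of a type and less RNA per cell cannot be told apart.

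LIM-homeodomain proteins bind DNA and use their LIM domains to recruit LDB proteins, which dimerise and bridge 2 such factors into a larger complex. LIM-only proteins such as LMO4 bind the same LDB surface but have no homeodomain, and single-stranded DNA binding proteins (SSBP) stabilise LDB. In the limb bud, Lhx2 and Lhx9 act in the distal mesenchyme, where they link FGF signals from the apical ectodermal ridge to Shh and Grem1 expression, and Lmx1b is switched on by WNT7A from dorsal ectoderm and gives the mesenchyme dorsal identity.

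The libraries held 20316583 to 29162751 reads on genes. Levels are given as CPM, the counts of a gene per 1000000 reads of the scaled library total, and a gene without reads could still have been present at up to 3 counts, which is 0.101 to 0.149 CPM by library. These limits are for counting error alone. The sort was checked with its own genes. Sox9 lay at 434, 432 and 445 CPM in OCPs and at 411, 571 and 625 CPM in chondroblasts, against 32 to 36.7 CPM in S9-JAG1+ LMPs, 57.2 to 65.4 CPM in S9-Pαhi LMPs and 14.7 and 7.41 CPM in S9-SCA-1+ cells. Jag1 lay between 228 and 364 CPM in S9-JAG1+ LMPs and was also present in chondroblasts, at 102, 119 and 137 CPM. Mean Pdgfra levels were 864 CPM in chondroblasts, 718 CPM in OCPs, 442 CPM in S9-Pαhi LMPs, 247 CPM in S9-JAG1+ LMPs and 34.4 CPM in S9-SCA-1+ cells. Mean Col2a1 levels were 1540 CPM in chondroblasts, 989 CPM in OCPs, 163 CPM in S9-SCA-1+ cells, 89.7 CPM in S9-Pαhi LMPs and 25.9 CPM in S9-JAG1+ LMPs. Chondroblasts were above OCPs by only 0.64 ± 0.23 SE on the log2 scale (edgeR adjusted p = 0.0534). Ly6a, which encodes SCA-1, reached 3.36 and 3.10 CPM in the S9-SCA-1+ libraries and at most 0.406 CPM in any other. The S9-SCA-1+ libraries also carried all 7 muscle precursor markers that were examined, with a summed level of 1500 CPM in both libraries against 1.93 to 11.4 CPM elsewhere, and Pax3, the regulator of migrating myoblasts, stood at 428 and 498 CPM there. Of the 7 blood markers, 5 were tested and 4 passed the joint test described below, which 74.8% of all tested genes passed. The 7 blood markers summed to 93.8 CPM in S9-SCA-1+ replicate 2 and to 2430 CPM in replicate 3, against 6.54 to 57.2 CPM in the other libraries. The 7 ectodermal markers summed to 6.12 to 23.3 CPM (4 of 5 tested genes past the joint test) and the 7 neural and neural crest markers to 5.13 to 29 CPM (5 of 6 tested genes), with the highest library of both among the chondroblasts.

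A sequence at the start of Lmx1b and upstream of it is shown because the gene that lies there had one of the most similar expression patterns to a member, as described further on. The 170 bases are chr2:33641179-33641348 of GRCm38 (RefSeq), read on the minus strand, which is the strand of Lmx1b. Capitals mark the 16 bases, chr2:33641193-33641208, that lie both within the RefSeq span of Lmx1b and within that of the noncoding RNA gene C130021I20Rik on the opposite strand.
Lmx1b upstream: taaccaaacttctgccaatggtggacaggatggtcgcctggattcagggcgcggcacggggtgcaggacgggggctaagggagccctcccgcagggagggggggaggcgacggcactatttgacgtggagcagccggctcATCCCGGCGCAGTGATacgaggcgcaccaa

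Lhx2, a LIM-homeodomain factor of the distal mesenchyme (Entrez 16870, chr2:38339271-38369737 of GRCm38), was expressed at its highest levels in both Sox9-negative LMP populations. Its level was 291, 279 and 427 CPM in S9-Pαhi LMPs (332 ± 82.0 CPM, SD, n = 3) and 203, 191 and 211 CPM in S9-JAG1+ LMPs (202 ± 10.2 CPM, n = 3). Far lower levels were found in chondroblasts, with 55.5, 65.0 and 85.3 CPM (68.6 ± 15.2 CPM, n = 3), in OCPs, with 65.3, 47.5 and 47.7 CPM (53.5 ± 10.2 CPM, n = 3), and in S9-SCA-1+ cells, with 52.4 and 35.0 CPM (43.7 ± 12.3 CPM, n = 2). The libraries of either LMP population did not overlap with those of the other 3 populations. Among these 3, OCP libraries overlapped with those of chondroblasts and of S9-SCA-1+ cells, and chondroblast libraries did not overlap with S9-SCA-1+ libraries. Genes were called different between populations at an adjusted p of at most 0.1 (edgeR quasi-likelihood test, Benjamini-Hochberg adjustment) and a log2 fold change of at least 1.2 in either direction. By this rule Lhx2 was lower in OCPs than in S9-Pαhi LMPs by 6.21-fold (log2 fold change -2.63 ± 0.21 SE, adjusted p = 2.95e-06), where it was the only one of the 6 genes called against 4.84% of all tested genes. It was also lower in OCPs than in S9-JAG1+ LMPs (log2 fold change -1.92 ± 0.20 SE, edgeR adjusted p = 5.63e-06).

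The difference between the LMP populations was smaller. Lhx2 was 1.65-fold higher in S9-Pαhi than in S9-JAG1+ LMPs (log2 fold change 0.72 ± 0.20 SE, edgeR adjusted p = 0.0177), below the limit on the fold change. Replicate 3 of the S9-Pαhi LMPs, the highest Lhx2 library, was also the highest of its population for Lhx9 and for the FGF targets Dusp6 (327 CPM against 218 and 187 CPM) and Spry4 (62.1 CPM against 36.5 and 36.1 CPM). The FGF targets Etv4, Etv5 and Spry1 were highest there too, but Spry2 was not (46.6 CPM, against 49.6 CPM in replicate 1). The part of this library's FGF target levels in the result was not tested. Without this library the Lhx2 difference was 0.50 (edgeR adjusted p = 0.0858). At the lower end of the order, chondroblasts and OCPs differed by 0.36 ± 0.20 (edgeR adjusted p = 0.203) and OCPs and S9-SCA-1+ cells by 0.29 ± 0.23 (edgeR adjusted p = 0.33), so that these neighbours were not separated beyond their spread, although the former had an adjusted p of 0.0906 (0.53) without OCP replicate 1. The difference between chondroblasts and S9-SCA-1+ cells (log2 fold change -0.65 ± 0.23 SE for S9-SCA-1+ cells, edgeR adjusted p = 0.025) rested on single libraries, as its adjusted p was 0.128 without chondroblast replicate 3 and 0.265 without S9-SCA-1+ replicate 3.

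Lhx9, the close relative of Lhx2 (Entrez 16876, chr1:138825186-138848839), followed the same order of the LMP populations but stayed higher in the Sox9-positive cells. It was present at 332, 361 and 437 CPM in S9-Pαhi LMPs (377 ± 54.2 CPM, n = 3) and at 266, 271 and 289 CPM in S9-JAG1+ LMPs (275 ± 12.1 CPM, n = 3). OCPs had 203, 168 and 167 CPM (180 ± 20.6 CPM, n = 3), chondroblasts 155, 171 and 171 CPM (166 ± 9.26 CPM, n = 3), and S9-SCA-1+ cells 56.1 and 38.6 CPM (47.3 ± 12.4 CPM, n = 2). The libraries of OCPs and chondroblasts overlapped, and those of every other pair of populations did not. Lhx9 was called only in the 4 comparisons with S9-SCA-1+ cells, which were lower by 3.50-fold (chondroblasts) to 7.96-fold (S9-Pαhi LMPs). Between chondroblasts and S9-Pαhi LMPs the log2 fold change was -1.19 ± 0.13 SE (edgeR adjusted p = 1.16e-05), just under the limit, and it passed the limit with DESeq2 (-1.21). Between OCPs and S9-JAG1+ LMPs it was -0.62 ± 0.13 SE (edgeR adjusted p = 0.002). The difference of 0.45 ± 0.13 between the LMP populations (edgeR adjusted p = 0.0235) became 0.33 (adjusted p = 0.102) without S9-Pαhi replicate 3.

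Lmx1b, the dorsal identity factor (Entrez 16917, chr2:33560965-33641208), had means of 58.3 to 72.3 CPM in LMPs and OCPs, and lower means in chondroblasts and S9-SCA-1+ cells. The LMPs and OCPs did not differ past the adjustment in the fit of all libraries. The libraries had 75.1, 71.0 and 70.7 CPM in S9-Pαhi LMPs (72.3 ± 2.46 CPM, n = 3), 68.9, 51.0 and 57.7 CPM in OCPs (59.2 ± 9.01 CPM, n = 3) and 52.5, 59.0 and 63.5 CPM in S9-JAG1+ LMPs (58.3 ± 5.53 CPM, n = 3). Chondroblasts were lower, at 38.9, 37.9 and 37.5 CPM (38.1 ± 0.709 CPM, n = 3), and S9-SCA-1+ cells had 10.8 and 6.34 CPM (8.59 ± 3.18 CPM, n = 2), so that the libraries of these 2 populations lay below all others. S9-Pαhi LMPs and OCPs differed by 0.29 ± 0.15 (edgeR adjusted p = 0.216), and OCPs and S9-JAG1+ LMPs by 0.02 ± 0.15 (edgeR adjusted p = 0.92), which gives 95% intervals for OCPs of -0.60 to 0.03 and -0.29 to 0.34 on the log2 scale. The LMP populations differed by 0.31 ± 0.15 (edgeR adjusted p = 0.161). The edgeR adjusted p was 0.0273 with only the libraries of the pair and 0.0558 in a fit without the S9-SCA-1+ libraries. It was 0.0577 to 0.0946 without OCP replicate 2 or either S9-SCA-1+ library. Leaving out OCP replicate 1 gave S9-Pαhi LMPs and OCPs a difference of -0.41 (edgeR adjusted p = 0.0595). In the fit without the S9-SCA-1+ libraries that difference was -0.30 (edgeR adjusted p = 0.0864). All S9-Pαhi libraries lay above all OCP and S9-JAG1+ libraries. Lmx1b was 1.55-fold lower in chondroblasts than in OCPs (edgeR adjusted p = 0.00667), and lower by 4.43-fold to 8.40-fold in S9-SCA-1+ cells compared with each of the 4 other populations, the only comparisons in which it was called. Muscle precursors of the limb come from the somites, and the muscle markers given above were high in the same libraries in which Lhx9 and Lmx1b were lowest. Their part in the differences of S9-SCA-1+ cells from other populations was not tested.

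**Figure D1:**
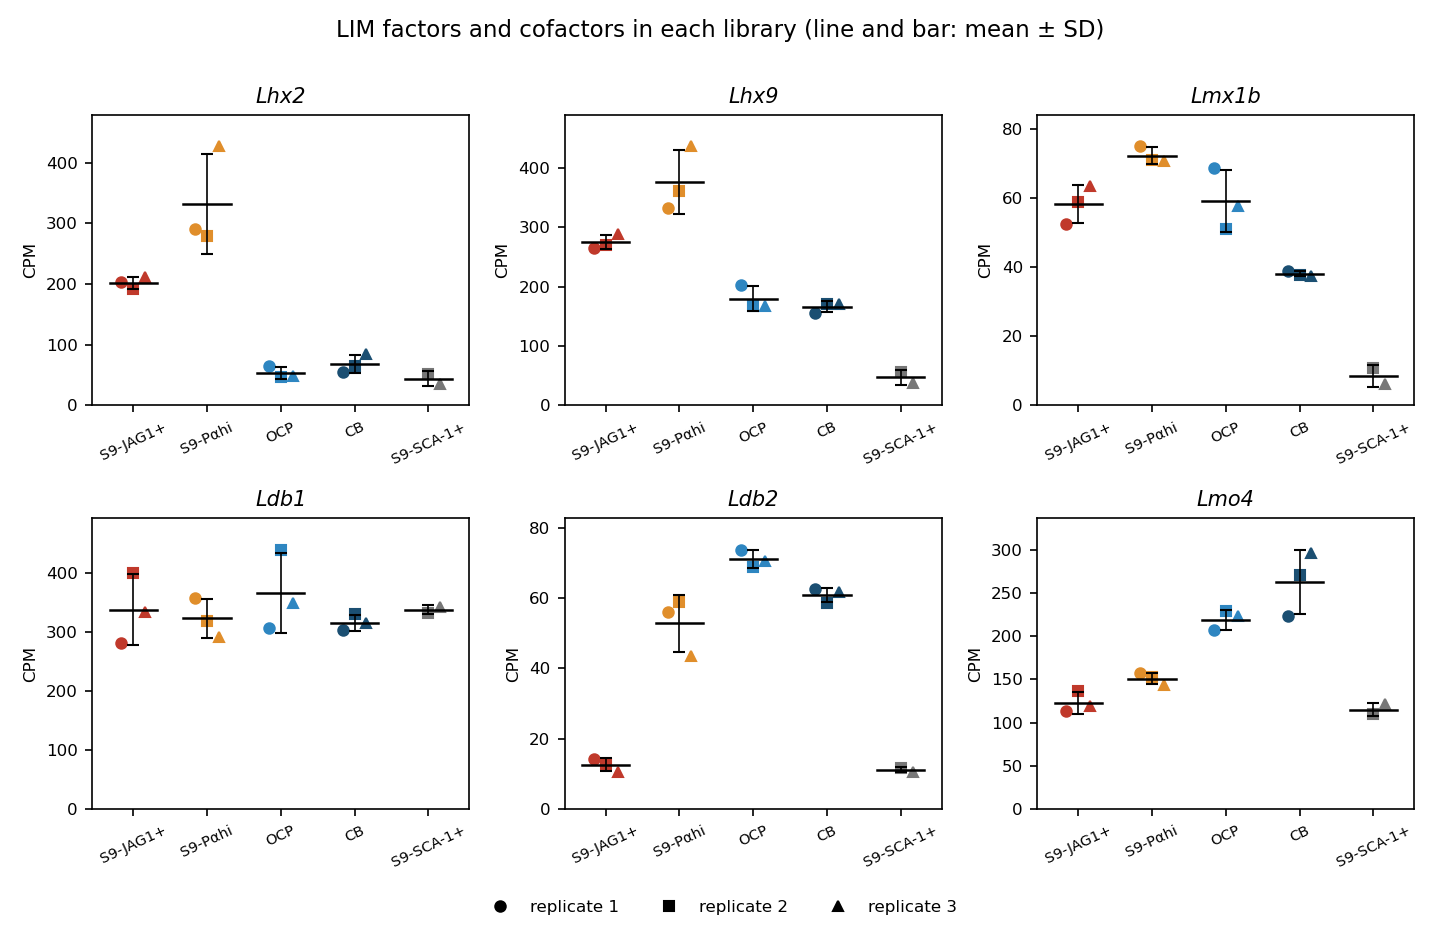
Level in CPM (linear axes from 0) of the 6 genes in each of the 14 libraries, with marker shape for the replicate number, a line for the population mean and a bar for the SD. Lhx2 and Lhx9 are highest in S9-Pαhi LMPs, Ldb2 is at 10.6 to 14.3 CPM in S9-JAG1+ LMPs and S9-SCA-1+ cells and at 43.6 CPM or more elsewhere, and Ldb1 means stay between 316 and 366 CPM.

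The 2 LDB cofactor genes behaved differently. Ldb1 (Entrez 16825, chr19:46031525-46048145), the broadly expressed bridging factor, was at 281, 400 and 334 CPM in S9-JAG1+ LMPs (338 ± 59.9 CPM, n = 3), at 358, 318 and 292 CPM in S9-Pαhi LMPs (323 ± 33.4 CPM, n = 3) and at 307, 440 and 349 CPM in OCPs (366 ± 68.2 CPM, n = 3). Chondroblasts had 303, 330 and 315 CPM (316 ± 13.6 CPM, n = 3), and S9-SCA-1+ cells 332 and 343 CPM (338 ± 7.90 CPM, n = 2). The libraries overlapped in 9 of the 10 pairs of populations, the exception being chondroblasts and S9-SCA-1+ cells, which were 332 CPM or more against at most 330 CPM, and the highest mean was 1.16-fold above the lowest. Ldb1 was called in 0 of 10 comparisons, with 0 at an unadjusted p under 0.05 by edgeR and 0 called by DESeq2. The largest of the 10 differences, chondroblasts against OCPs, was -0.21 ± 0.14 SE with a 95% interval of -0.50 to 0.08 on the log2 scale, and the 10 intervals together ran from -0.50 to 0.47. In a fit of S9-SCA-1+ cells and chondroblasts alone the difference of these populations was 0.14 (edgeR adjusted p = 0.092). In GENCODE, 3.84% of the Ldb1 exon bases lie opposite Pprc1, whose reads could add to Ldb1 if strand was not used in counting.

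Ldb2 (Entrez 16826, chr5:44435955-44799759), the second LDB gene, had a sharp difference among the Sox9-negative populations. Its level was 14.3, 12.9 and 10.6 CPM in S9-JAG1+ LMPs (12.6 ± 1.85 CPM, n = 3) and 11.6 and 10.6 CPM in S9-SCA-1+ cells (11.1 ± 0.732 CPM, n = 2). In S9-Pαhi LMPs it was 56.1, 59.0 and 43.6 CPM (52.9 ± 8.14 CPM, n = 3), in OCPs 73.9, 68.8 and 70.6 CPM (71.1 ± 2.58 CPM, n = 3), and in chondroblasts 62.6, 58.7 and 61.8 CPM (61.0 ± 2.06 CPM, n = 3). All libraries of the latter 3 populations lay above all libraries of the former. Ldb2 was 4.21-fold higher in S9-Pαhi than in S9-JAG1+ LMPs (log2 fold change 2.08 ± 0.12 SE, edgeR adjusted p = 6.99e-08), the only one of the 6 genes called in that comparison, in which 7.00% of all tested genes were called. It was 5.66-fold higher in OCPs than in S9-JAG1+ LMPs (log2 fold change 2.50 ± 0.13 SE, edgeR adjusted p = 5.67e-09). S9-JAG1+ LMPs and S9-SCA-1+ cells differed by 0.18 ± 0.14 (edgeR adjusted p = 0.405), chondroblasts and S9-Pαhi LMPs by 0.20 ± 0.12 (edgeR adjusted p = 0.161), and OCPs and chondroblasts by 0.22 ± 0.12 (edgeR adjusted p = 0.175). OCPs were above S9-Pαhi LMPs by 0.43 ± 0.12 (edgeR adjusted p = 0.0281), a difference of 0.31 (adjusted p = 0.118) without S9-Pαhi replicate 3. Of the pairs not past the adjustment, chondroblasts against S9-Pαhi LMPs passed it without S9-Pαhi replicate 2 (0.29, edgeR adjusted p = 0.0769) and with library totals (0.31, 0.039), and chondroblasts against OCPs without OCP replicate 2 (-0.28, 0.0938). Since Ldb2 is also known from endothelial cells, 9 endothelial markers were examined, and their sum was 16.8 to 19.2 CPM in S9-JAG1+ LMPs, 24.0 to 31.8 CPM in S9-Pαhi LMPs, 22.5 to 26.0 CPM in OCPs, 36.9 to 61.0 CPM in chondroblasts and 25.1 to 29.4 CPM in S9-SCA-1+ cells. Of these, 5 passed the joint test, against 74.8% of all tested genes, and Erg accounted for 26.3 to 51.7 CPM in chondroblasts. Between S9-Pαhi and S9-JAG1+ LMPs, where Ldb2 was higher, 2 of the 9 were also called higher and 0 lower, against 4.42% of all tested genes called higher (median log2 fold change 0.86, against 0), namely Erg (12.8 against 4.48 CPM, 1.52, edgeR adjusted p = 0.000129) and Pecam1 (0.783 against 0.301 CPM, 1.34, edgeR adjusted p = 0.082). The Pecam1 libraries overlapped and were low, at 8, 22 and 24 counts in S9-Pαhi and 7, 4 and 11 counts in S9-JAG1+ LMPs. The part of the endothelial markers in the Ldb2 result was not tested.

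Lmo4 (Entrez 16911, chr3:144188530-144205255), which can compete with LIM-homeodomain factors for LDB, was graded across the populations. Chondroblasts had 223, 271 and 297 CPM (263 ± 37.6 CPM, n = 3), OCPs 207, 229 and 223 CPM (mean 219 CPM, n = 3), and S9-Pαhi LMPs 157, 153 and 144 CPM (151 ± 6.76 CPM, n = 3). S9-JAG1+ LMPs had 113, 137 and 119 CPM (123 ± 12.7 CPM, n = 3), and S9-SCA-1+ cells 110 and 121 CPM (115 ± 7.96 CPM, n = 2). The libraries of OCPs and chondroblasts lay above all others and overlapped with each other. Of its 10 comparisons, 9 had an adjusted p of at most 0.1 by edgeR and by DESeq2, and 0 were called because each log2 fold change was under 1.2, with 9 at an unadjusted p under 0.05. The largest were -1.19 ± 0.12 SE for S9-SCA-1+ cells against chondroblasts (2.28-fold, edgeR adjusted p = 2.13e-06) and 1.10 ± 0.10 SE for chondroblasts against S9-JAG1+ LMPs (2.14-fold, edgeR adjusted p = 9.67e-07). With library totals in place of scaled sizes these became -1.30 and 1.22 and passed the limit. The step from OCPs to chondroblasts was 0.26 ± 0.10 (edgeR adjusted p = 0.0754) and that from S9-JAG1+ to S9-Pαhi LMPs 0.30 ± 0.10 (edgeR adjusted p = 0.0561). Both adjusted p lay near the limit of 0.1 and rose above it when any of several libraries was left out. For the former this was OCP replicate 1 or 3, chondroblast replicate 2 or 3 or S9-JAG1+ replicate 3 (0.15 to 0.26, edgeR adjusted p = 0.117 to 0.357). For the latter it was S9-Pαhi replicate 1 or 2 or S9-JAG1+ replicate 1 or 3 (0.24 to 0.29, edgeR adjusted p = 0.125 to 0.173). S9-SCA-1+ cells were below S9-Pαhi LMPs by 0.39 ± 0.12 (edgeR adjusted p = 0.0257), or 0.32 (0.196) without S9-SCA-1+ replicate 2.

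Taking the comparisons in turn, Lhx2 and Ldb2 were the genes called between OCPs and S9-JAG1+ LMPs (2 of 6 genes, against 12.5% of all tested genes) and between chondroblasts and S9-JAG1+ LMPs (2 of 6, against 19.4%), with Lhx2 lower and Ldb2 higher in the Sox9-positive cells of both. Lhx2 alone was called between chondroblasts and S9-Pαhi LMPs (1 of 6, against 12.7%), at a log2 fold change of -2.28 ± 0.21 SE. Between chondroblasts and OCPs 0 of 6 genes were called by edgeR and by DESeq2, against 7.77% of all genes, and 2 of the 6, Lmx1b and Lmo4, had an unadjusted p under 0.05. S9-SCA-1+ cells had lower Lhx2, Lhx9 and Lmx1b than S9-JAG1+ LMPs (3 of 6, against 4.91% of all tested genes called lower there), lower Lhx2, Lhx9, Lmx1b and Ldb2 than S9-Pαhi LMPs (4 of 6, against 5.58%), and lower Lhx9, Lmx1b and Ldb2 than OCPs (3 of 6, against 8.03%) and chondroblasts (3 of 6, against 13.9%). In all, 20 of 60 pairs of gene and comparison were called, against 11.8% over all tested genes, and 40 had an adjusted p of at most 0.1, against 42.5%. A joint test of difference among the 5 populations was passed by 5 of the 6 genes at an adjusted p of at most 0.1, with Ldb1 the exception (edgeR adjusted p = 0.625), but it was passed by 74.8% of all tested genes and so says little about these genes in particular. Without the S9-SCA-1+ libraries and without the E11.5 chondroblasts, 2 alternatives chosen after seeing the data, Ldb1 was again the 1 gene that did not pass (edgeR adjusted p = 0.553 and 0.76), and 67.7% and 53.9% of all genes tested in these fits passed.

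**Figure D2:**
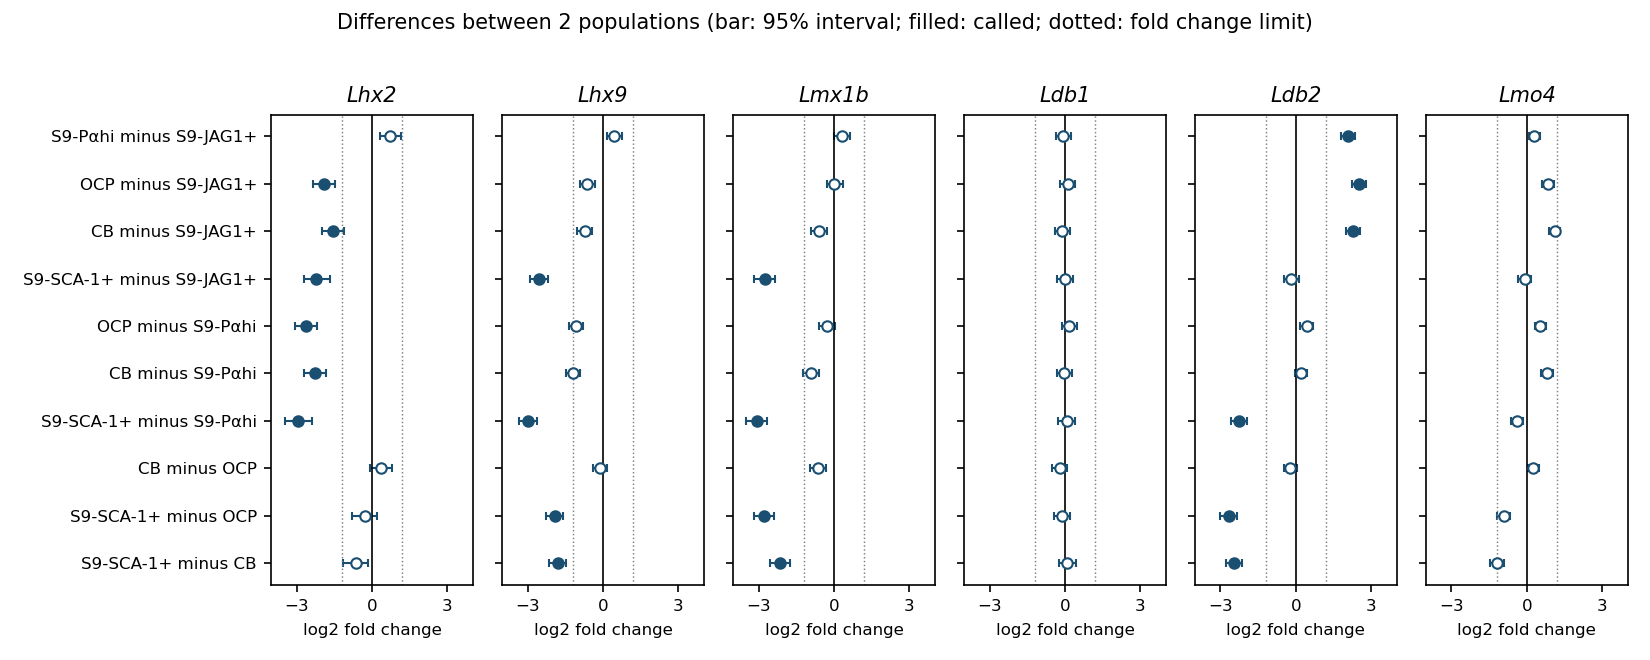
Log2 fold change of each gene in the 10 comparisons of populations, as the first named population minus the second (CB, chondroblasts), with 95% intervals from the edgeR fit. Filled points were called, open points were not, and dotted lines mark the limit of 1.2 in both directions, which no Ldb1 or Lmo4 point passes.

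Levels of different genes were compared per kilobase of the exon length given with the counts. On this scale Ldb1 was at 118 to 137 CPM per kb in the 5 population means, and Ldb2 at 4.16 to 26.7 CPM per kb, so that Ldb2 was the minor LDB transcript in all libraries. Lhx2 reached 118 ± 29.1 CPM per kb in S9-Pαhi LMPs and fell to 19.0 ± 3.61 CPM per kb in OCPs, whereas Lhx9 was at 65.6 ± 9.42 and 31.2 ± 3.58 CPM per kb in these populations (n = 3). Lmo4 was at 129 ± 18.3 CPM per kb in chondroblasts. Lmx1b was left out of comparisons per length, because the table gives it 1219 exon bases where GENCODE has 4880.

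Since scaling between libraries does not enter a ratio of 2 genes within a library, such ratios were tested for each population against all other libraries with exact two-sided permutation tests, 20 in all, with Benjamini-Hochberg adjusted p. The Lhx9 to Lhx2 ratio per exon length was 1.53, 1.73 and 1.72 in OCPs, above every other library. Mean ratios, here and below, are geometric means, taken on the log2 scale. The mean Lhx9 to Lhx2 ratio was 1.66 in OCPs, 1.2 in chondroblasts (0.983 to 1.37), 0.669 in S9-JAG1+ LMPs, 0.563 in S9-Pαhi LMPs and 0.532 in S9-SCA-1+ cells. Per deposited exon length, Lhx2 thus exceeded Lhx9 in all Sox9-negative libraries and Lhx9 exceeded Lhx2 in the OCP libraries. In CPM, where length is not taken out, mean Lhx9 was above mean Lhx2 in every population. The deposited lengths were 2820 bases for Lhx2 and 5750 for Lhx9, where GENCODE has 4393 and 9494. The OCPs stood 1.21 above the other libraries on the log2 scale (exact permutation p = 0.00549, the smallest that 3 against 11 libraries allow, adjusted p = 0.0366). Any 3 libraries that are all highest or all lowest reach this p. The tests shuffle single libraries, and those of a population resemble each other. Their p values thus describe rank order and do not measure a population against the spread between populations.

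The sum of Lhx2 and Lhx9 relative to Ldb1 had a mean of 1.5 in S9-Pαhi LMPs (1.2 to 2.08), 0.953 in S9-JAG1+ LMPs, 0.447 in chondroblasts, 0.368 in OCPs and 0.184 in S9-SCA-1+ cells. S9-Pαhi LMPs stood 1.76 above the other libraries on the log2 scale (exact permutation p = 0.00549, adjusted p = 0.0366), and S9-SCA-1+ cells 1.92 below (-1.92, exact permutation p = 0.022, the smallest that 2 against 12 allow, adjusted p = 0.11). For Lmo4 to Ldb1 the mean was 1.08 in chondroblasts and 0.79 in OCPs, against 0.613 in S9-Pαhi LMPs, 0.477 in S9-JAG1+ LMPs and 0.445 in S9-SCA-1+ cells. Only the chondroblasts differed past the adjustment, by 0.90 on the log2 scale (exact permutation p = 0.00549, adjusted p = 0.0366). The Ldb2 to Ldb1 ratio was 0.0374 in S9-JAG1+ LMPs and 0.0329 in S9-SCA-1+ cells, against 0.163 to 0.197 in the other population means. Neither low population differed past the adjustment (-1.85, exact permutation p = 0.0385, adjusted p = 0.137 for S9-JAG1+ LMPs, and -1.91, exact permutation p = 0.0879, adjusted p = 0.16 for S9-SCA-1+ cells), and each was tested against libraries that include the other. None of the 3 differences past the adjustment kept an adjusted p of at most 0.1 when 1 library of its own population was left out (0.103 to 0.128, exact permutation), where the smallest possible p is larger.

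**Figure D3:**
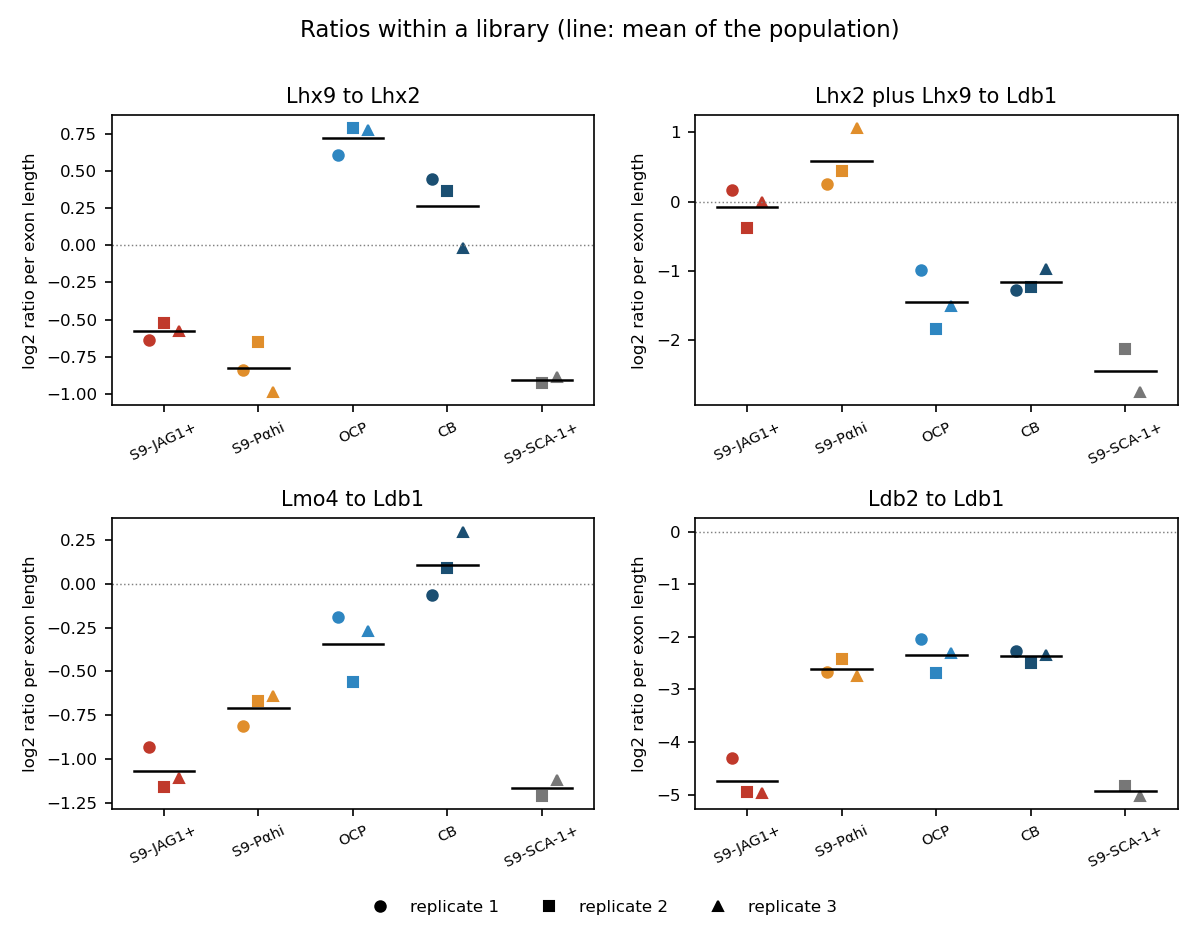
Log2 ratios per exon length within each library, with marker shape for the replicate number, a line for the population mean and a dotted line at equal levels. The OCP libraries are the highest for Lhx9 to Lhx2, the S9-Pαhi libraries for the sum of Lhx2 and Lhx9 to Ldb1, and the S9-JAG1+ and S9-SCA-1+ libraries are the lowest for Ldb2 to Ldb1.

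Of 9 other LIM-homeodomain genes, 4 had enough counts to be tested and 2 passed the joint test, against 74.8% of all tested genes. Both were low: Lhx1 was at most at 2.42 CPM, in a chondroblast library, and Isl1, a factor of hindlimb and motor neuron development, had 4.72 and 7.66 CPM in the S9-SCA-1+ libraries, with 2.09 CPM as the highest value of the other 12. The 9 genes together summed to at most 9.93 CPM in any library, below Lmx1b in 13 of the 14 libraries.

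The other LIM-only and partner genes varied more than Ldb1, and all 7 passed the joint test, as did 74.8% of all tested genes. Lmo2, a LIM-only adaptor best known from blood and endothelial development, was at 147, 190 and 201 CPM in S9-JAG1+ LMPs (179 ± 28.4 CPM, n = 3) whereas the remaining 11 libraries stayed at or under 12.8 CPM. It was 16.4-fold lower in S9-Pαhi LMPs (log2 fold change -4.04 ± 0.18 SE, edgeR adjusted p = 6.30e-09), which is the reverse of Ldb2 in the same comparison. The endothelial marker sum was lowest in S9-JAG1+ LMPs, and the blood marker sum there was 6.54 to 38.7 CPM. The part of such markers in the Lmo2 level was not tested. Lmo1 had its highest mean in S9-JAG1+ LMPs, at 74.4, 46.8 and 49.0 CPM, but overlapped there with S9-Pαhi LMPs, at 29.3, 24.6 and 52.3 CPM (edgeR adjusted p = 0.136). It was lower in chondroblasts than in S9-JAG1+ LMPs, at 6.96, 6.88 and 6.36 CPM (log2 fold change -3.07 ± 0.34 SE, edgeR adjusted p = 3.82e-06). Lmo3 stood at 14.3 and 15.5 CPM in S9-SCA-1+ cells, and its next highest library had 2.74 CPM. The 4 LIM-only genes thus had their highest means in S9-JAG1+ LMPs (Lmo1 and Lmo2), chondroblasts (Lmo4) and S9-SCA-1+ cells (Lmo3).

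Among the SSBP genes, Ssbp2 had its lowest levels in the same 2 populations as Ldb2, with 49.3, 49.4 and 46.8 CPM in S9-JAG1+ LMPs and 50.7 and 49.4 CPM in S9-SCA-1+ cells. It was highest in chondroblasts, at 123, 132 and 131 CPM (2.65-fold over S9-JAG1+ LMPs, log2 fold change 1.40 ± 0.09 SE, edgeR adjusted p = 1.90e-08). Ssbp3 was highest in S9-Pαhi LMPs, with a mean of 914 ± 13.4 CPM (n = 3), and S9-SCA-1+ cells had the lowest mean, 386 ± 18.9 CPM (n = 2). Rlim, the ubiquitin ligase that targets LDB proteins, ranged from 112 to 156 CPM in the means and was called in no comparison, and Ssbp4 had means of 102 to 170 CPM.

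**Figure D4:**
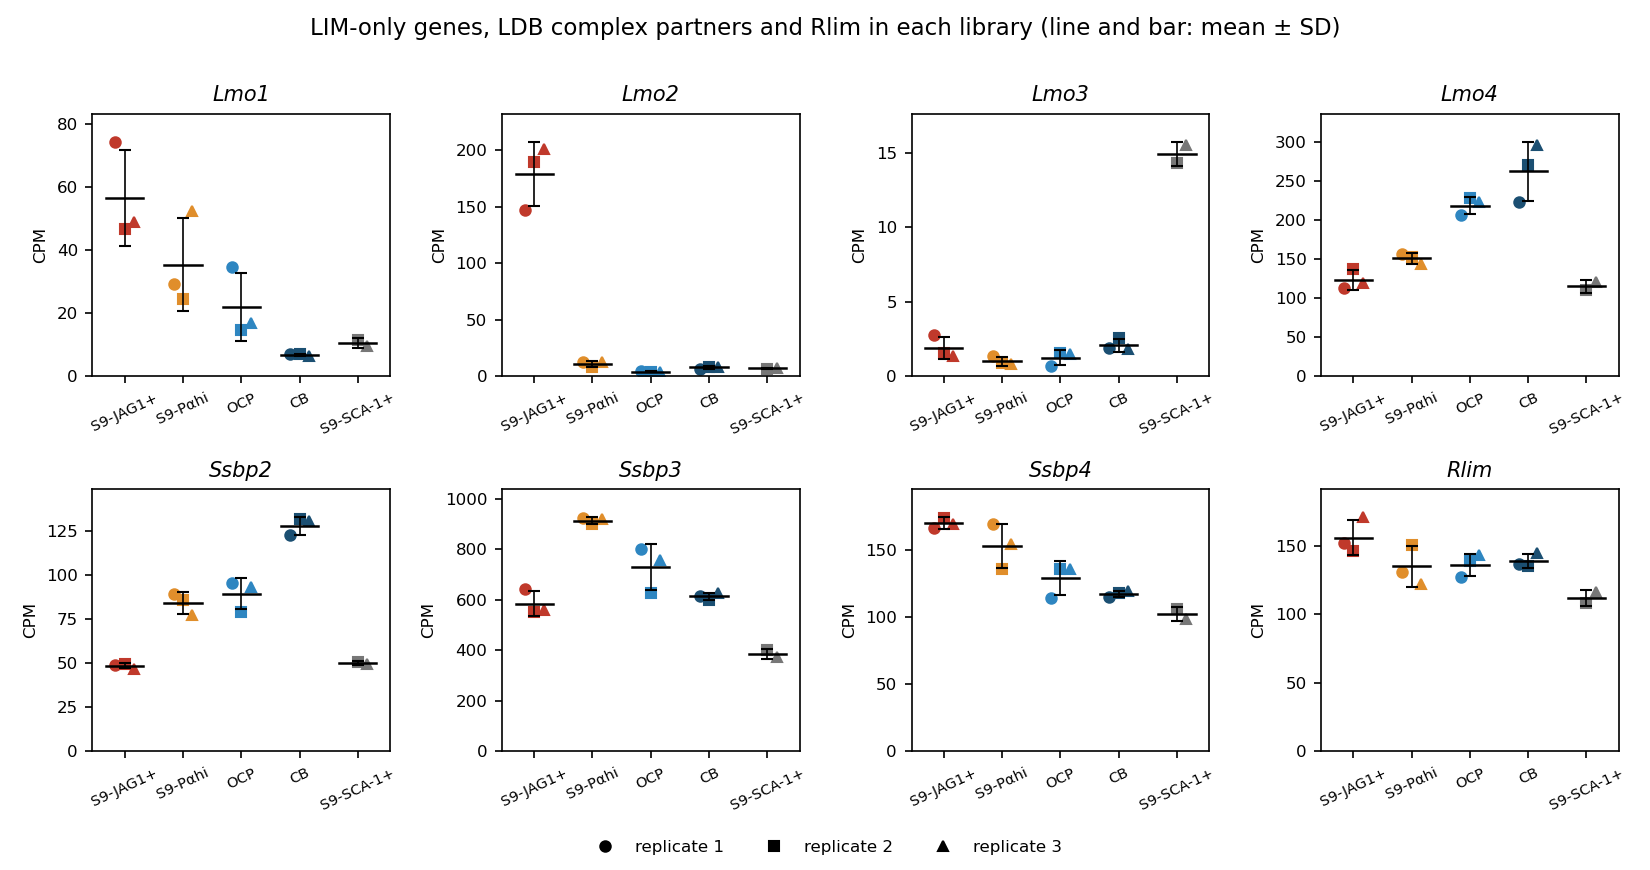
Level in CPM (linear axes from 0) of the LIM-only genes, the SSBP genes and Rlim in each library, with marker shape for the replicate number, a line for the mean and a bar for the SD. Lmo2 is at 147 to 201 CPM in S9-JAG1+ LMPs and at most at 12.8 CPM elsewhere, Lmo3 is highest in S9-SCA-1+ cells, and Lmo4 and Ssbp2 are highest in chondroblasts.

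The genes of the SHH, GREM1 and FGF loop were examined because Lhx2, Lhx9 and Lmx1b act in it. From these same libraries, the study had already described several of them as high or above average in S9-JAG1+ LMPs. These were Grem1, Gli1, Ptch1, Hoxd13, Msx1, Spry1, Spry2, Spry4 and Dusp6. For Msx1 the study described higher levels in S9-Pαhi LMPs as well. The counts of called genes below therefore describe known genes and are no independent result. All 8 genes of the distal signalling list and all 6 FGF target genes passed the joint test, against 74.8% of all tested genes. Lhx2 and Lhx9 were highest in S9-Pαhi LMPs. Unlike them, 6 of 7 distal genes and all 6 FGF targets had their highest mean in S9-JAG1+ LMPs. Jag1, whose protein was used to sort these cells, is left out of this distal count. For Spry2 the mean was close to that of chondroblasts (104 against 101 CPM), and the libraries overlapped (0.05 ± 0.14, edgeR adjusted p = 0.784). The share of all tested genes with their highest mean in S9-JAG1+ LMPs was not computed. Shh was at 54.1, 62.3 and 74.3 CPM in S9-JAG1+ LMPs and at 19.0, 13.6 and 15.5 CPM in S9-Pαhi LMPs. Hoxd13, a distal patterning gene, was at 799, 965 and 1210 CPM against 79.6, 62.3 and 72.7 CPM. In S9-Pαhi against S9-JAG1+ LMPs, 3 of 7 distal genes without Jag1 were called lower and 0 higher, against 2.58% of all tested genes called lower (median log2 fold change -1.18, against 0 for all tested genes), and of the 6 FGF targets 3 were lower and 0 higher (median -1.22). With Jag1, whose direction the gate fixed, the count was 4 of 8 and the median -1.52, and leaving it out was chosen after seeing the data. Spry4, a feedback inhibitor of FGF signalling, was at 164, 145 and 165 CPM against 36.5, 36.1 and 62.1 CPM. Msx1, a homeobox gene of distal and peripheral mesenchyme, was the exception, with 284 ± 14.3 CPM in S9-Pαhi and 259 ± 30.7 CPM in S9-JAG1+ LMPs (n = 3) and 22.9 ± 6.34 CPM in OCPs. Its LMP libraries overlapped and differed by 0.13 ± 0.16 (edgeR adjusted p = 0.61). Between OCPs and S9-JAG1+ LMPs, 6 of 7 distal genes without Jag1 and 5 of 6 FGF targets were called lower in OCPs, against 3.46% of all tested genes (medians -2.33 and -1.68, against 0.03).

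Genes on either side of Lmx1b in dorsoventral patterning were ordered otherwise than Lmx1b itself. Wnt7a, the ectodermal signal upstream of Lmx1b, had at most 3 counts in every library and was not tested. All 6 others passed the joint test, against 74.8% of all tested genes. Kera and Lum, matrix proteoglycan genes known as LMX1B targets in dorsal mesenchyme, had their highest levels in chondroblasts, where Lmx1b was lower than in the other 3 mesenchymal populations. Kera was at 18.5, 16.9 and 18.4 CPM in chondroblasts and at most 0.428 CPM elsewhere, and Lum at 89.6, 83.0 and 44.5 CPM against at most 17.6 CPM. Gdf5, a joint marker, was at 26.4 to 42.1 CPM in chondroblasts and at most 4.27 CPM elsewhere, and Emx2, a homeobox gene, was highest in OCPs, at 48.8, 51.1 and 50.6 CPM. Between chondroblasts and OCPs, 5 of the 6 genes were called higher and 0 lower, against 6.60% of all tested genes called higher (median log2 fold change 2.85, against -0.02 for all tested genes), while Lmx1b differed by -0.64 ± 0.15 SE. These comparisons are also comparisons of E11.5 with E10.5.

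For each of the 5 genes that passed the joint test, the 3 genes with the most similar log2 CPM were taken from 11883 genes with an average of at least 1 log2 CPM, by Pearson's r over the 14 libraries, as a description. The libraries fall into 5 populations, so that these r values largely compare population means, and they are also given over the 12 libraries without S9-SCA-1+ cells. The genes nearest to Lhx2 were Dkk1, a WNT antagonist (r = 0.931, and 0.963 over 12), Bmp4, a BMP ligand (0.931 and 0.928), and Prdm6 (0.925 and 0.903), and Dkk1 had means of 25.1 CPM in S9-Pαhi LMPs, 6.29 CPM in S9-JAG1+ LMPs and 0.804 CPM in OCPs. For Lhx9 they were the paired-type homeobox gene Prrx2 (0.967 and 0.948), the BMP ligand gene Bmp7 (0.958 and 0.824) and Prr7 (0.957 and 0.824). Ldb2 was nearest to Plcl1 (0.99 and 0.985), Aass (0.987 and 0.981) and the microfibril gene Mfap4 (0.984 and 0.983), and Lmo4 to Zfyve1 (0.979 and 0.993), Rab32 (0.974 and 0.967) and Sgce (0.972 and 0.964). For these 2 genes the likeness stood without the S9-SCA-1+ libraries. Lhx2 and Lhx9 themselves had r = 0.82 over 14 libraries and 0.97 over the 12, whereas Lhx9 and Lmx1b had 0.95 and 0.77.

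The likeness for Lmx1b rested more on the S9-SCA-1+ libraries. Its nearest genes were the PDGF receptor gene Pdgfrb (0.982, and 0.845 over 12 libraries), C130021I20Rik (0.981 and 0.81) and Zfp503 (0.958 and 0.572). C130021I20Rik is a long noncoding RNA gene at chr2:33641193-33645663 on the plus strand, next to the start of Lmx1b. In RefSeq the spans of both genes share the 16 bases in capitals in the sequence above. In GENCODE the span of Lmx1b reaches only to chr2:33640511 and does not include these bases. The level of C130021I20Rik was 278, 251 and 294 CPM in S9-Pαhi LMPs (274 ± 21.6 CPM, n = 3), 264, 199 and 220 CPM in OCPs (228 ± 33.2 CPM, n = 3) and 199, 220 and 193 CPM in S9-JAG1+ LMPs (204 ± 14.0 CPM, n = 3). Chondroblasts had 203, 196 and 170 CPM (190 ± 17.3 CPM, n = 3), and S9-SCA-1+ cells 39.2 and 24.2 CPM (31.7 ± 10.6 CPM, n = 2). It was called lower in S9-SCA-1+ cells in all 4 comparisons with them, by -2.58 ± 0.19 SE (against chondroblasts) to -3.11 ± 0.19 SE (against S9-Pαhi LMPs) on the log2 scale, where Lmx1b had -2.15 ± 0.19 and -3.07 ± 0.19. Between chondroblasts and OCPs the RNA differed by -0.26 ± 0.15 (edgeR adjusted p = 0.204), and whether this differed from the -0.64 of Lmx1b was not tested. The sources used here do not state whether strand was used in counting, and the part of reads starting in the shared 16 bases in this likeness was not tested. On the other side of Lmx1b, Zbtb43 had r = -0.06 with it over the 14 libraries.

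**Figure D5:**
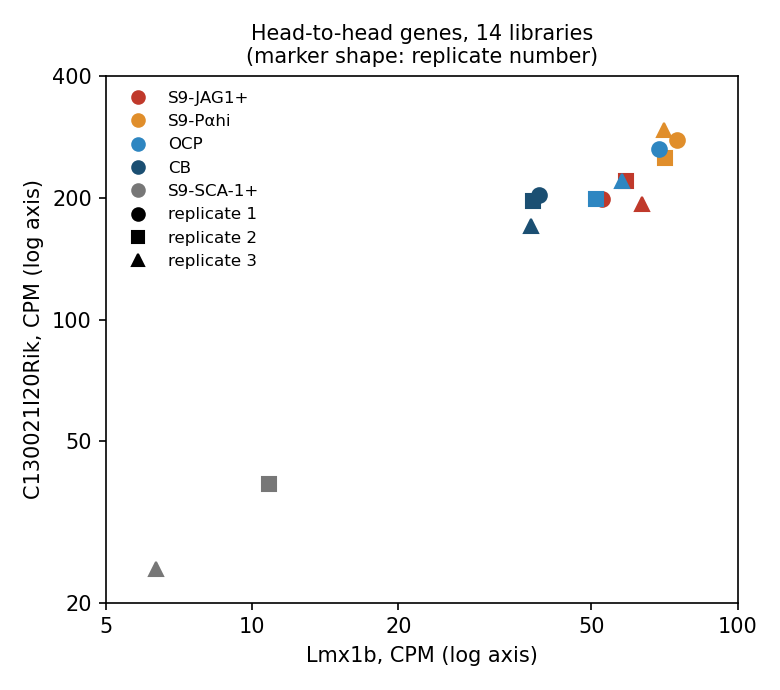
Level of C130021I20Rik against that of Lmx1b in CPM (both axes logarithmic) in the 14 libraries, with colour for the population and marker shape for the replicate number. The 2 S9-SCA-1+ libraries, at 10.8 and 6.34 CPM of Lmx1b, stand apart from the other 12, which lie between 37.5 and 75.1 CPM.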

How the data were processed

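RNA-seq of 14 libraries was used. Per the methods of the study, the authors aligned single-end reads of 50 bases from poly(A)+ RNA to mm10 with STAR, kept 1 position for reads with several, and counted with QuasR the reads starting in exons of RefSeq mRNAs. They deposited raw counts per Entrez ID with an exon length, without normalization. Of 24454 IDs, 24374 were matched to RefSeq symbols (GRCm38), and the other 80 held 0.358% of counts.

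Counts were analysed in R 4.3.3 with edgeR 4.0.16: filterByExpr by population (15125 genes), TMM factors (0.957 to 1.06), 1 quasi-likelihood fit with a mean for each population over all 14 libraries (biological coefficient of variation 13.4%), and Benjamini-Hochberg adjustment over all tested genes in each comparison. The SE is the size of the log2 fold change divided by the square root of F. CPM are on scaled totals, and log2 CPM have a prior count of 2. Ratios within a library, with 0.5 counts added, were tested by exact permutation of libraries (Python 3.11.15, numpy 2.4.6). Replicates are labelled as separate samples of a population and differed by more than sampling noise. The procedure was tested on simulated data. Named genes are the 6 members, the 3 most correlated genes of each member past the joint test, the sort genes and at most 4 genes of each other list with the largest range of population means, with other genes by counts. Ssbp3, Ssbp4, Rlim, Wnt7a, Pecam1 and Zbtb43 were added after their values were seen. The 6 genes and all lists were chosen with earlier results of these data known. DESeq2 1.42.0, other scalings, filters, limits and sample sets, a replicate block and leaving out each library were alternatives.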

Additional observations from a re-analysis of the deposited data

How the results depend on the processing

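The number of calls among 60 pairs of gene and comparison was 20, between 20 and 24 under the other settings and 20 to 21 when any 1 library was left out, and all 301 recomputed counts of called or differing genes stayed within 1.5 times the reported ones. Of 1416 recomputed values for the 6 genes, 1395 kept their call, 0 lost it, 0 reversed and 21 gained it. The latter were Lhx9 between chondroblasts and S9-Pαhi LMPs (13 settings, log2 fold change -1.27 to -1.19), Lhx9 between OCPs and S9-Pαhi LMPs (1 setting, -1.07, limit of 1.0), Lmo4 between chondroblasts and S9-JAG1+ LMPs (2 settings, 1.10 to 1.22) and Lmo4 between S9-SCA-1+ cells and chondroblasts (5 settings, -1.30 to -1.19), all by passing the limit on the fold change. With a replicate block 21 pairs were called. The labels do not say that replicate numbers mark a shared pool of buds, and whether libraries shared one was not settled here. Correlations of deviations between libraries of the same number ran from -0.18 to 0.31 (median 0), with 4 of 26 over 0.1. For the ratios, leaving out 1 library gave 1.15 to 1.30 for Lhx9 to Lhx2 in OCPs, 0.80 to 0.98 for Lmo4 to Ldb1 in chondroblasts and 1.53 to 1.92 for Lhx2 plus Lhx9 to Ldb1 in S9-Pαhi LMPs, on the log2 scale, with adjusted p of 0.0466 to 0.128 (exact permutation), above 0.1 each time a library of the population itself was left out, since 2 libraries against 11 allow no smaller p. It gave -0.86 to -0.69 for Lhx9 to Lhx2 in S9-Pαhi LMPs, -2.07 to -1.73 for Ldb2 to Ldb1 and -0.67 to -0.52 for Lmo4 to Ldb1 in S9-JAG1+ LMPs, with the lowest adjusted p, 0.0932, 0.0699 and 0.0932 (exact permutation), without an S9-SCA-1+ library, and the cause was not tested. Depth limits only the genes at or near 3 counts, such as Wnt7a and, outside chondroblasts, Kera.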
